A study of Mus musculus with 9 samples.

Results

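The comparison of 6 h with 1 h after the induction of differentiation was examined in cultured neural stem cells (NSCs) from the subependymal zone (SEZ) of the adult mouse brain. It asked which transcripts fell back, and which rose, only after the first hour. It used 6 of the 9 libraries of the RNA-seq series, 3 from cells at 1 h and 3 from cells at 6 h, and the 3 libraries of undifferentiated cells (0 h) entered where a gene's path from the start was needed. The libraries were chosen by their time labels and paired by the replicate number of the labels, and all genes of the count table were used.

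NSCs were isolated from the SEZ of 2 to 4-month-old mice (C57BL/6 in the labels, C57BL/6J in the study's methods) and grown as neurospheres, and no genotype or drug differed between the groups. Cells of all groups were thus wild-type expanded cultures, a model that lacks the niche of the brain. Differentiation was on an adhesive substrate (Matrigel) without EGF but with FGF, and polyadenylated RNA was sequenced. For cells fixed at early times the study's methods describe seeding in complete medium before the change, and whether the RNA libraries were made in this way is not stated there. The labels do not say what libraries with the same number share, or whether they came from separate animals. With libraries paired by that number, p-values measure the spread of the change over time between numbers, which may be technical. In such bulk samples, fewer cells of a type and less RNA per cell cannot be told apart. In these cultures the NSC genes Nes, Vim, Fabp7 and Slc1a3 were each between 1005 and 3209.5 CPM (counts scaled to the library total) in all 6 libraries of 1 h and 6 h. Sox2 was between 105 and 127 CPM and Egfr between 513 and 819.9 CPM. Gfap, which marks NSCs in the tissue, was at or below 1.55 CPM.

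SEZ NSCs give rise to neurons and to glia of the oligodendrocyte lineage through dividing progenitors, and EGF keeps them dividing in culture. Cells answer a change of growth factor or substrate with immediate early genes, which need no new protein to be transcribed and are shut off within hours, partly by decay of their short-lived mRNAs. Later responses include genes of the cell cycle, of ribosome production and of lipid synthesis, where the factors SREBP-1 and SREBP-2 act on the genes of fatty acid and cholesterol synthesis.

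The short windows below come from the 250 bases upstream of the gene starts in RefSeq (GRCm38.p6), and they are shown because SRF, NF-κB, E2F and SREBP are known to act on genes of the groups described next. The motifs searched on both strands were the CArG box, which binds SRF, the NF-κB consensus, the E2F letters TTTGGCGC, the sterol regulatory element TCACNCCAC and the cAMP response element TGACGTCA. Capitals mark the match, and every window is written 5′ to 3′ on the strand of its gene. The first 5 genes hold a CArG box and fell back after the first hour, and Egr2 holds one and fell only after it. Rel, Cxcl10 and Fosb hold the NF-κB consensus and fell back, Pola1, Mcm6 and Mcm5 hold E2F letters and fell, and Hmgcs1 holds a sterol regulatory element and rose.
Dusp5 (chr19:53529043-53529092, plus strand): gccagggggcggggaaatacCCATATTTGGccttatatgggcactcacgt
Filip1l (chr16:57549160-57549209, plus strand): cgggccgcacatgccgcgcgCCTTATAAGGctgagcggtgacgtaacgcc
Rnd3 (chr2:51149182-51149231, minus strand): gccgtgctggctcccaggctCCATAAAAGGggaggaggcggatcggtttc
Srf (chr17:46556215-46556264, minus strand): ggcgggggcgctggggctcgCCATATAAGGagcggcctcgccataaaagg
Zfp36 (chr7:28379257-28379306, minus strand): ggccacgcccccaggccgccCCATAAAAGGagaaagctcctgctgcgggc
Egr2 (chr10:67537474-67537523, plus strand): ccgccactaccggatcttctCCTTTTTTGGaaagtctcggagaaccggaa
Rel (chr11:23771032-23771081, minus strand): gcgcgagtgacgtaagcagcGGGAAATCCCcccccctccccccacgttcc
Cxcl10 (chr5:92349019-92349068, minus strand): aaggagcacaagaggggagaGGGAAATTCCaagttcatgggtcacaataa
Fosb (chr7:19310204-19310253, minus strand): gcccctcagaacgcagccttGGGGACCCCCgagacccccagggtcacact
Pola1 (chrX:93632266-93632313, minus strand): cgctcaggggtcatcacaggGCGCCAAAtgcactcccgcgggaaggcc
Mcm6 (chr1:128359788-128359835, minus strand): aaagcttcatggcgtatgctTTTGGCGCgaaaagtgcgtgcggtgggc
Mcm5 (chr8:75109340-75109387, plus strand): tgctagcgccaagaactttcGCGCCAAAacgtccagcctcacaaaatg
Hmgcs1 (chr13:119690194-119690242, plus strand): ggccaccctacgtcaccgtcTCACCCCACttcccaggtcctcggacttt

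Promoters were matched for 11963 of 18857 tested gene symbols. A CArG box was found in 1.43% of them, in 5 of 87 matched genes that fell back (5.75%) and in 5 of 20 targets of YAP and SRF (25%). The NF-κB consensus was in 10.7% of all promoters, in 13 of the 87 (14.9%) and in 8 of 18 genes of the NF-κB pathway (44.4%). E2F letters were in 0.894% of all promoters, in 3 of the 87 (3.45%) and in 3 of 25 DNA replication genes (12%). The sterol regulatory element was in 1.27% of all promoters, in 2 of the 87 (2.3%) and in 1 of 23 sterol and fatty acid genes (4.35%). The cAMP response element was in 2.98% of all promoters and in 2 of the 87 (2.3%). Matches of the CArG box and the NF-κB consensus overlapped in 2 promoters, matches of the cAMP response and sterol elements overlapped in 2, and no other pair of motifs overlapped. The windows of Dusp5 and Srf hold further CArG letters in the lower-case bases. These matches are letters in a short window, and binding was not measured. Of the genes shown that are not described further on, the actin-associated Filip1l went from 5.81, 3.10 and 5.07 CPM at 1 h to 1.93, 1.09 and 2.59 CPM at 6 h and the small GTPase gene Rnd3 from 98.7, 65.7 and 88.2 CPM at 1 h to 37.1, 34.6 and 38.6 CPM at 6 h. Both were chosen for the motif after their values were seen, and their changes were -1.33 ± 0.15 and -1.18 ± 0.07 on the log2 scale.

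The total count was between 65871454 and 90687377 per library at 1 h and between 73170866 and 105592597 at 6 h, and mitochondrial genes took between 2.86% and 3.58% over the 9 libraries. Values are given as CPM after TMM scaling, whose factors were between 0.97 and 1.02. Libraries that share a replicate number were alike once the time means had been removed. The biological coefficient of variation was 0.0627 with the replicate number as a block and 0.277 without it. The block is therefore part of the test used here, the quasi-likelihood test of edgeR over 18858 genes with Benjamini-Hochberg adjustment and a threshold of 0.05. Each error beside a log2 fold change is a standard error, with 3 libraries per time point.

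Between 1 h and 6 h, 3401 genes rose (18.0% of those tested) and 3309 fell (17.5%). Most of these changes were small, with a median of 1.31-fold among the genes that rose and 1.23-fold among those that fell, and 287 rose and 308 fell at least 2-fold. The direction was the same in 3 of 3 pairs for 3356 of the genes that rose and 3210 of those that fell. The libraries of the 2 times did not overlap for 4182 genes (22.2% of those tested). At 6 h they were above those of 1 h for 2291 of these genes and below for 1891, of which 1831 and 1519 were past the threshold. Without the block, edgeR called 279 genes higher and 125 lower, and all 404 were among the genes called with it. DESeq2 without the block called 930 higher and 758 lower. Of 157 genes named here and called with the block, edgeR called 47 and DESeq2 96 without it. Further values without the block are by edgeR unless DESeq2 is named. The plot of all tested genes shows the range of both directions.

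**Figure D1:**
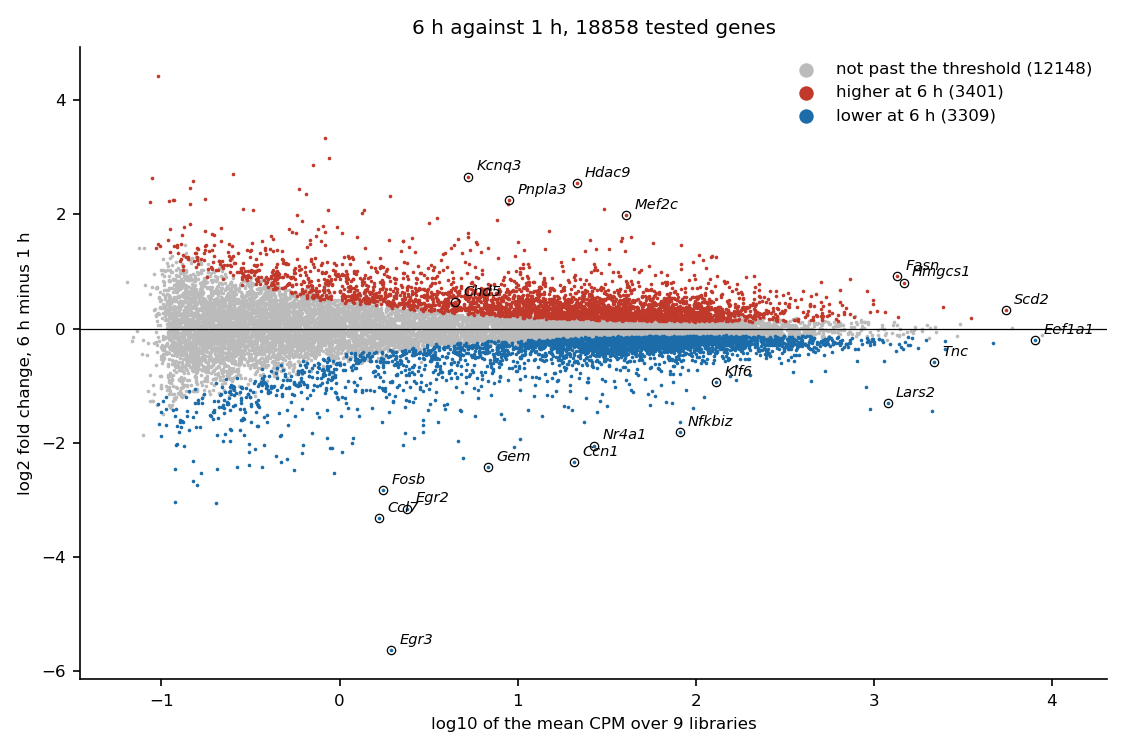
Log2 fold change between 6 h and 1 h (positive, higher at 6 h) against the log10 of the mean CPM over 9 libraries, 1 point per tested gene. The 3401 genes that rose are red, the 3309 that fell are blue, and open circles mark some of the named genes, with Egr3 at -5.64 and Kcnq3 at 2.66.

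The genes that fell back were those higher at 1 h than at 0 h and lower at 6 h than at 1 h, and they numbered 123. In the first hour 257 genes rose (1.36% of those tested) and 404 fell (2.14%). These counts were 8 and 0 by edgeR without the block (459 lower at an unadjusted p under 0.05) and 55 and 44 by DESeq2 without it. Leaving out replicate 1, 2 or 3 of 0 h gave 140, 126 and 135 higher and 117, 87 and 84 lower genes, and leaving out 1 h replicate 1 or 2 gave 152 and 265 lower. Of the 257, 123 then fell, 68 rose further and 66 were not past the threshold between 1 h and 6 h. The 1 h libraries enter both comparisons, so a value that is high at 1 h by error counts toward both steps. The median log2 fold change of the 123 genes was 0.63 in the first hour and -0.75 from 1 h to 6 h. At 6 h against 0 h, where 17.4% of all tested genes were higher and 17.5% lower, 27 of the 123 were still higher, 36 were lower and 60 were not past the threshold. Without the block DESeq2 gave 33 genes that fell back and edgeR 4, namely Adamts1, Fosb, Nfil3 and Nfkbiz. Of these Adamts1, a matrix protease gene, was named after its values were seen, and it went from 175, 168 and 173 CPM at 1 h to 50.6, 76.9 and 73.3 CPM at 6 h (-1.39 ± 0.11, edgeR adjusted p = 1.3e-06). Leaving out replicate 1, 2 or 3 of 0 h gave 79, 75 and 75 genes that fell back, and leaving out all libraries of replicate 1 or 2 gave 78 and 69.

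Fosb, a subunit of the transcription factor AP-1 (ENSMUSG00000003545, chromosome 7, 19302696 to 19310051, mm10), was at 0.594, 0.419 and 0.759 CPM at 0 h, 4.91, 3.64 and 3.87 CPM at 1 h and 0.516, 0.605 and 0.588 CPM at 6 h. The 1 h libraries stood above all others, and the 6 h libraries lay in the range of the 0 h libraries. From 1 h to 6 h Fosb fell 7.15-fold (-2.84 ± 0.18 on the log2 scale, edgeR adjusted p = 2.9e-07), and its difference between 6 h and 0 h was -0.03 ± 0.22 (adjusted p = 0.938). Egr3, a zinc finger factor of the early growth response family (ENSMUSG00000033730, chromosome 14, 70077203 to 70082614), was at 0.995, 1.70 and 1.002 CPM at 0 h, 7.11, 3.55 and 2.99 CPM at 1 h and 0.0814, 0.132 and 0.0467 CPM at 6 h. Its 6 h libraries lay below those of both earlier times, with as few as 5 reads in a library. The fitted log2 fold change from 1 h was -5.64 ± 0.37 (edgeR adjusted p = 3.7e-07), the largest fall among the genes named by the rule. Nfkbiz, which encodes the nuclear IκBζ protein of the NF-κB system (ENSMUSG00000035356, chromosome 16, 55811375 to 55838899), was at 24.9, 24.9 and 27.1 CPM at 0 h, 173, 158 and 179 CPM at 1 h and 46.8, 55.5 and 43.1 CPM at 6 h. It fell 3.51-fold after the first hour (-1.81 ± 0.08, edgeR adjusted p = 2.6e-08) and remained 1.89-fold above 0 h (adjusted p = 5.8e-06). Klf6, a Krüppel-like factor (ENSMUSG00000000078, chromosome 13, 5861482 to 5870394), was at 113, 120.5 and 126 CPM at 0 h, 191, 173 and 169 CPM at 1 h and 88.8, 101 and 89.9 CPM at 6 h. All 3 libraries of 6 h lay below those of 0 h as well as those of 1 h, and the change from 1 h was -0.93 ± 0.07 (edgeR adjusted p = 6.3e-07). The calls of Fosb, Egr3, Nfkbiz and Klf6 from 1 h to 6 h were also made without the block.

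**Figure D2:**
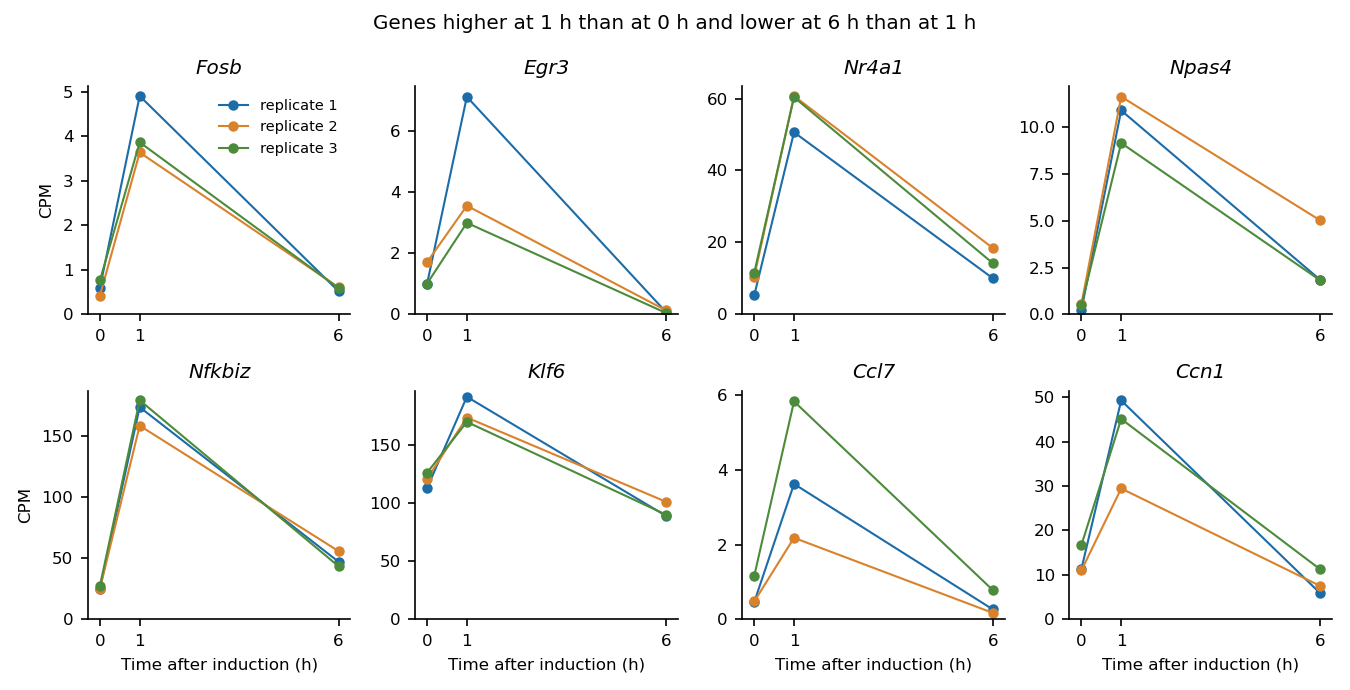
CPM of 8 genes that fell back, by time after induction (h), with 1 line per replicate number. In every panel the 3 libraries of 1 h lie above the 3 libraries of 6 h, and Nfkbiz and Npas4 end above all their 0 h values.

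The immediate early genes had the lowest median of the 16 lists plotted further on. Of 33 tested, 24 fell (72.7%, beside 17.5% over all tested genes), 1 rose and 8 were not past the threshold. The median log2 fold change was -0.85, beside -0.00 over all tested genes. Without the block 9 fell. Of the 33, 15 had risen in the first hour and fell back, a path taken by 0.652% of all tested genes. The orphan nuclear receptor gene Nr4a1 went from 50.6, 60.7 and 60.4 CPM at 1 h to 9.99, 18.4 and 14.2 CPM at 6 h and fell 4.14-fold (-2.05 ± 0.13, edgeR adjusted p = 2.9e-07), with no overlap between the times. The activity-induced factor Npas4 was at 0.235, 0.541 and 0.487 CPM at 0 h, 10.9, 11.6 and 9.16 CPM at 1 h and 1.85, 5.03 and 1.82 CPM at 6 h, so that the 6 h libraries lay between those of 0 h and 1 h. Its fall was -1.97 ± 0.21 (edgeR adjusted p = 1.8e-05, and 0.0730 without the block). Other members that fell back were Klf4 (-1.59), Nr4a3 (-1.50), Atf3 (-1.18), Nfil3 (-1.17), Fosl2 (-1.10), Egr4 (-1.08), Srf (-0.91) and Gadd45b (-0.73), given with the log2 fold change from 1 h to 6 h. They encode transcription factors, among them the AP-1 partner Fosl2 and the factor Srf itself, and the growth arrest protein Gadd45b. By edgeR without the block Nr4a3, Egr4, Srf and Gadd45b were not past the threshold (adjusted p = 0.264, 0.164, 0.0860 and 0.111).

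Other immediate early genes fell only after the first hour, with no call between 0 h and 1 h. Egr2, a relative of Egr3 (ENSMUSG00000037868, chromosome 10, 67535475 to 67542188), was at 2.54, 3.60 and 4.08 CPM at 0 h, 3.30, 3.17 and 3.82 CPM at 1 h and 0.231, 0.517 and 0.401 CPM at 6 h. The 0 h and 1 h libraries overlapped and the 6 h libraries lay below both, a change of -3.16 ± 0.19 from 1 h (edgeR adjusted p = 2.2e-07, and 0.00654 without the block). Fos, the founding AP-1 gene, was at 13.7, 16.5 and 14.7 CPM at 1 h and 9.50, 10.7 and 7.95 CPM at 6 h and changed by -0.68 ± 0.09 (edgeR adjusted p = 1.1e-04, 0.0539 without the block). Arc, a gene of synaptic plasticity, changed by -1.45 ± 0.11 and Junb by -0.85 ± 0.20 (edgeR adjusted p = 1.4e-06 and 0.00471, and 0.164 and 0.316 without the block). Egr1 fell in both steps, from 52.2, 48.7 and 81.4 CPM at 0 h to 29.4, 25.4 and 31.5 CPM at 1 h and 12.4, 22.5 and 11.2 CPM at 6 h. Its second fall was -0.91 ± 0.23 (edgeR adjusted p = 0.00752), which was lost without the block (0.150) and without 6 h replicate 1 (0.052). Jun and Myc took another path, with a fall in the first hour and no call after it. Jun was at 169.7, 115 and 158 CPM at 0 h, 96.7, 64.7 and 73.1 CPM at 1 h and 85.5, 64.1 and 79.00 CPM at 6 h and Myc at 118, 102 and 107 CPM at 0 h, 89.9, 64.9 and 73.1 CPM at 1 h and 82.3, 80.2 and 64.5 CPM at 6 h. From 1 h to 6 h their log2 fold changes were -0.03 ± 0.06 and 0.00 ± 0.08 (edgeR adjusted p = 0.768 and 0.996), and the sign of both depended on the settings. The member that rose was Gadd45g, from 38.2, 40.7 and 43.8 CPM at 1 h to 55.02, 59.2 and 65.02 CPM at 6 h with no overlap (0.55 ± 0.06, edgeR adjusted p = 4.0e-05, 0.0257 without the block), after a fall in the first hour (-0.26). Nr4a2 rose in the first hour and was 0.10 ± 0.09 from 1 h to 6 h (edgeR adjusted p = 0.431).

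Of 23 tested genes of the NF-κB pathway, 7 fell (30.4%, beside 17.5% over all tested genes) and 5 rose (21.7%, beside 18.0%). The median was -0.05, and without the block edgeR called 2 lower and 0 higher (3 higher at an unadjusted p under 0.05) and DESeq2 4 and 2. The members moved in both directions. The chemokine gene Ccl2 went from 8.28, 4.59 and 10.9 CPM at 1 h to 1.51, 1.07 and 2.28 CPM at 6 h with no overlap. Its change was -2.27 ± 0.12 (edgeR adjusted p = 6.0e-08, and 0.0325 without the block). The inhibitor gene Nfkbia fell by less (-0.56 ± 0.06), as did the subunit genes Relb (-0.55 ± 0.08) and Rel (-0.52 ± 0.09), the latter 2 after a rise in the first hour. Their adjusted p-values by edgeR were 3.4e-05, 3.1e-04 and 5.2e-04, and 0.0911, 0.122 and 0.274 without the block. In the other direction the precursor gene Nfkb2 rose from 26.9, 27.04 and 30.9 CPM at 1 h to 36.1, 36.8 and 37.7 CPM at 6 h (0.39 ± 0.06, edgeR adjusted p = 1.9e-04) and the inhibitor gene Nfkbie changed by 0.48 ± 0.10 (adjusted p = 0.00226), with 0.0640 and 0.232 by edgeR without the block. DESeq2 without the block called Nfkb2, Nfkbia and Relb (adjusted p = 0.00121, 0.00563 and 0.0137). It did not call Rel or Nfkbie (adjusted p = 0.152 and 0.0953). The subunit gene Rela was at 42.5, 38.4 and 43.5 CPM at 1 h and 45.6, 43.9 and 46.6 CPM at 6 h, a change of 0.13 ± 0.05 that was not past the threshold (edgeR adjusted p = 0.0554). Outside this list, the chemokine genes Ccl7 and Cxcl10 were among the 14 largest falls. Ccl7 was at 0.456, 0.473 and 1.16 CPM at 0 h, 3.63, 2.18 and 5.84 CPM at 1 h and 0.258, 0.165 and 0.775 CPM at 6 h and fell 10.04-fold. The log2 change was -3.33 ± 0.20 (edgeR adjusted p = 2.3e-07, and 0.0515 without the block). Cxcl10 fell by 1.92 on the log2 scale (edgeR adjusted p = 5.1e-06, 0.101 without the block), and its exons overlap those of the antisense gene Art3.

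Targets of YAP and SRF include genes of the actin cytoskeleton and of the matrix. They fell in 17 of 26 tested members (65.4%, beside 17.5% over all tested genes) and rose in 2, with a median of -0.27. Without the block 4 fell. The matricellular gene Ccn1 (ENSMUSG00000028195, chromosome 3, 145646976 to 145649981) was at 11.3, 10.96 and 16.7 CPM at 0 h, 49.3, 29.5 and 45.1 CPM at 1 h and 5.85, 7.49 and 11.2 CPM at 6 h, and its 6 h libraries lay below those of both earlier times except for overlap with 0 h in replicate 3. It fell 5.05-fold from 1 h. This amounted to -2.34 ± 0.16 (edgeR adjusted p = 4.9e-07, and 0.0124 without the block). Its relative Ccn2 went from 31.4, 13.2 and 12.2 CPM at 1 h to 3.68, 5.42 and 3.29 CPM at 6 h (-2.08 ± 0.23, edgeR adjusted p = 2.6e-05), a gene whose exons are shared with the antisense gene Gm15270. The smooth muscle actin gene Acta2 went from 103, 107 and 59.8 CPM at 1 h to 39.96, 44.7 and 25.2 CPM at 6 h, with all libraries of 6 h below those of 1 h. It also marks mural cells, whose other markers are given at the end. Its change was -1.29 ± 0.05 (edgeR adjusted p = 1.5e-08, 0.0911 without the block). Tagln, Thbs1 and the tissue factor gene F3 changed by -1.02 ± 0.11, -0.99 ± 0.12 and -0.93 ± 0.09, and the LIM protein gene Fhl2 by -1.999 ± 0.28, each past the threshold, of which F3 (0.0212) and Fhl2 (0.0322) were also called without the block. The Hippo pathway gene Wwc1, one of the 2 that rose, went from 83.7, 109 and 103 CPM at 1 h to 135, 171 and 136 CPM at 6 h with no overlap. The paired change was 0.58 ± 0.06 (edgeR adjusted p = 2.1e-05, and 0.0960 without the block).

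The feedback genes of MAPK and EGF signalling fell in 10 of 24 tested members (41.7%, beside 17.5% over all tested genes). They rose in 3 (12.5%, beside 18.0%), with a median of -0.18, and without the block 1 fell. Those with the largest falls were the phosphatase genes Dusp5 (-0.95 ± 0.09), Dusp14 (-0.78 ± 0.11) and Dusp16 (-0.61 ± 0.06). Dusp5 went from 8.88, 10.5 and 10.2 CPM at 1 h to 4.09, 6.26 and 5.06 CPM at 6 h with no overlap (edgeR adjusted p = 1.0e-05, 0.0681 without the block). The feedback inhibitor gene Spry2 went from 227, 212 and 240.5 CPM at 1 h to 170.3, 196 and 172 CPM at 6 h. The difference was -0.33 ± 0.07 (edgeR adjusted p = 0.00194, and 0.0981 without the block). Dusp6, a phosphatase gene induced by ERK, had fallen in the first hour (-0.53) and was at 393, 266 and 230.1 CPM at 1 h and 323, 306 and 225 CPM at 6 h, with -0.03 ± 0.09 between them (edgeR adjusted p = 0.802). Dusp7 rose from 37.6, 37.00 and 35.9 CPM at 1 h to 55.4, 49.7 and 47.3 CPM at 6 h. The log2 fold change was 0.46 ± 0.08 (edgeR adjusted p = 6.1e-04, and 0.0954 without the block). Among the regulators of mRNA decay 6 of 20 fell (30%, beside 17.5% over all tested genes) and 5 rose (25%, beside 18.0%), with a median of -0.08. By edgeR 0 were called without the block (3 higher and 2 lower at an unadjusted p under 0.05) and DESeq2 called 3 higher and 1 lower. Zfp36, whose protein drives the decay of AU-rich mRNAs, was at 2.42, 2.61 and 3.16 CPM at 0 h, 6.05, 6.10 and 6.03 CPM at 1 h and 3.91, 4.14 and 3.73 CPM at 6 h, so that its 6 h libraries lay between the earlier times (-0.63 ± 0.10 from 1 h, edgeR adjusted p = 5.3e-04, 0.0659 without the block). Btg1 fell back (-0.30 ± 0.05, 0.567 without the block), whereas the antiproliferative gene Btg2 rose in both steps, and went from 127, 173 and 161 CPM at 1 h to 204, 251 and 248 CPM at 6 h. The change between times was 0.62 ± 0.05 (edgeR adjusted p = 1.8e-06, and 0.0646 without the block).

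The other genes among the 14 largest falls were Gem, Klf5 and Syt4. Gem, a small GTPase of the RGK family, was at 1.67, 2.95 and 2.35 CPM at 0 h, 8.55, 19.3 and 18.05 CPM at 1 h and 1.74, 3.63 and 3.11 CPM at 6 h and was back in the range of 0 h in replicate 1, slightly above it in the others (-2.42 ± 0.10 from 1 h, edgeR adjusted p = 1.5e-08, 0.0250 without the block). Klf5 fell to below its 0 h values, from 1.51, 1.84 and 1.75 CPM at 0 h and 4.03, 4.66 and 3.70 CPM at 1 h to 0.828, 1.17 and 1.02 CPM at 6 h. This was -2.03 ± 0.13 (edgeR adjusted p = 2.9e-07, and 0.00426 without the block). Syt4, a synaptotagmin gene, was at 0.656, 2.98 and 0.765 CPM at 1 h and 0.0407, 0.935 and 0.131 CPM at 6 h, where replicate 2 at 6 h overlapped replicates 1 and 3 at 1 h, and the call (-2.17 ± 0.31, edgeR adjusted p = 1.5e-04) was not made without the block (0.434). Its exons overlap those of the antisense gene Gm26658. Of the 14 largest falls, which were picked for their size, 13 had no overlap between the times (22.2% of all tested genes). Without the block 10 were called.

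Genes lower at 6 h than at 1 h with no call between 0 h and 1 h, described as falling only after the first hour, numbered 3149. Of these 2290 were also lower at 6 h than at 0 h, and without the block the group numbered 121. A gene with no call in the first hour may still have changed in it. Of 32 tested DNA replication genes, 29 fell (90.6%, beside 17.5% over all tested genes), 1 rose and 2 were not past the threshold. Their median was -0.38. The fit of edgeR without the block called 0 (8 lower at an unadjusted p under 0.05) and DESeq2 called 3 lower. Replicate 2 lay below replicates 1 and 3 at each time for Pola1, Mcm6, Mcm5, Tyms and E2f1. Pola1, the catalytic subunit of DNA polymerase α (ENSMUSG00000006678, chromosome X, 93304767 to 93632155), went from 127, 102 and 127 CPM at 1 h to 85.1, 58.04 and 94.4 CPM at 6 h and was lower in each pair with no overlap. The fitted change was -0.60 ± 0.07 (edgeR adjusted p = 2.2e-05, and 0.153 without the block). The helicase subunit gene Mcm6 went from 466, 233 and 402 CPM at 1 h to 352, 134 and 294 CPM at 6 h. The 2 times overlapped because replicate 2 at 1 h lay below replicates 1 and 3 at 6 h, and the fall within pairs was -0.55 ± 0.07 (edgeR adjusted p = 9.8e-05, 0.600 without the block). Mcm5, the thymidylate synthase gene Tyms and the transcription factor gene E2f1 changed by -0.54 ± 0.06, -0.55 ± 0.05 and -0.56 ± 0.07 (edgeR adjusted p = 2.3e-05, 6.4e-06 and 4.9e-05). The member that rose, Gins3, changed by 0.21 ± 0.06 (edgeR adjusted p = 0.0195), and this call was lost in 7 of the alternatives that kept the block, with an adjusted p of up to 0.16. Genes of the G1 phase fell in 8 of 12 tested members (66.7%, beside 17.5% over all tested genes) and rose in 1, with a median of -0.19. Without the block edgeR called 0 of them (1 lower at an unadjusted p under 0.05) and DESeq2 called 1 lower. The cyclin gene Ccne2 and the pocket protein gene Rbl1 changed by -0.49 ± 0.09 and -0.53 ± 0.06. The abundant cyclin gene Ccnd2 went from 1665, 2019 and 1209 CPM at 1 h to 1188, 1669.6 and 1126 CPM at 6 h (-0.29 ± 0.07, edgeR adjusted p = 0.00426), a call lost without replicate 1 (0.092). Genes of mitosis fell in 5 and rose in 5 of 24 tested members (20.8% each), near the 17.5% and 18.0% over all tested genes. Their median was 0.02, and the difference between these lists was not tested.

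Genes of ribosome biogenesis fell in 25 of 30 tested members and rose in none, with a median of -0.30, beside 17.5% lower over all tested genes. Without the block 1 fell, Ddx21. The nucleolin gene Ncl went from 1570.5, 987 and 1248 CPM at 1 h to 1069.9, 659.9 and 844 CPM at 6 h, lower in each pair while the ranges overlapped. On the log2 scale it changed by -0.57 ± 0.05 (edgeR adjusted p = 5.1e-06, and 0.258 without the block). Fbl, the methyltransferase of box C/D particles, went from 119, 112 and 153 CPM at 1 h to 83.6, 75.7 and 98.7 CPM at 6 h with no overlap. Its change was -0.57 ± 0.06 (edgeR adjusted p = 9.1e-06, and 0.0872 without the block). The nucleophosmin gene Npm1, Nop58 and the helicase gene Ddx21 changed by -0.56 ± 0.06, -0.54 ± 0.05 and -0.48 ± 0.04 (edgeR adjusted p = 1.0e-05, 5.5e-06 and 6.0e-06). All 30 members had a negative log2 fold change.

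By difference in mean CPM, the 3 largest falls were those of Lars2, Tnc and Eef1a1. Lars2, the mitochondrial leucyl-tRNA synthetase gene, differed more between replicates than between times, with 3753, 284 and 1763 CPM at 1 h and 714, 251 and 686 CPM at 6 h. It changed by -1.31 ± 0.31 (edgeR adjusted p = 0.00505), and the call was lost without the block (0.378) and without 6 h replicate 1 (0.052). Tnc, the matrix protein tenascin-C, went from 3344, 2236 and 1705 CPM at 1 h to 2190.4, 1309 and 1301 CPM at 6 h, with overlapping ranges and a fall in each pair. The log2 change was -0.59 ± 0.07 (edgeR adjusted p = 2.7e-05, and 0.376 without the block). Eef1a1, a translation elongation factor gene, changed by -0.20 ± 0.05 (edgeR adjusted p = 0.0112), a call lost without the block (0.226), without replicate 1 (0.069) and without 6 h replicate 3 (0.061). The exons of Tnc and Eef1a1 overlap those of 8030451A03Rik and Gm26377.

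**Figure D3:**
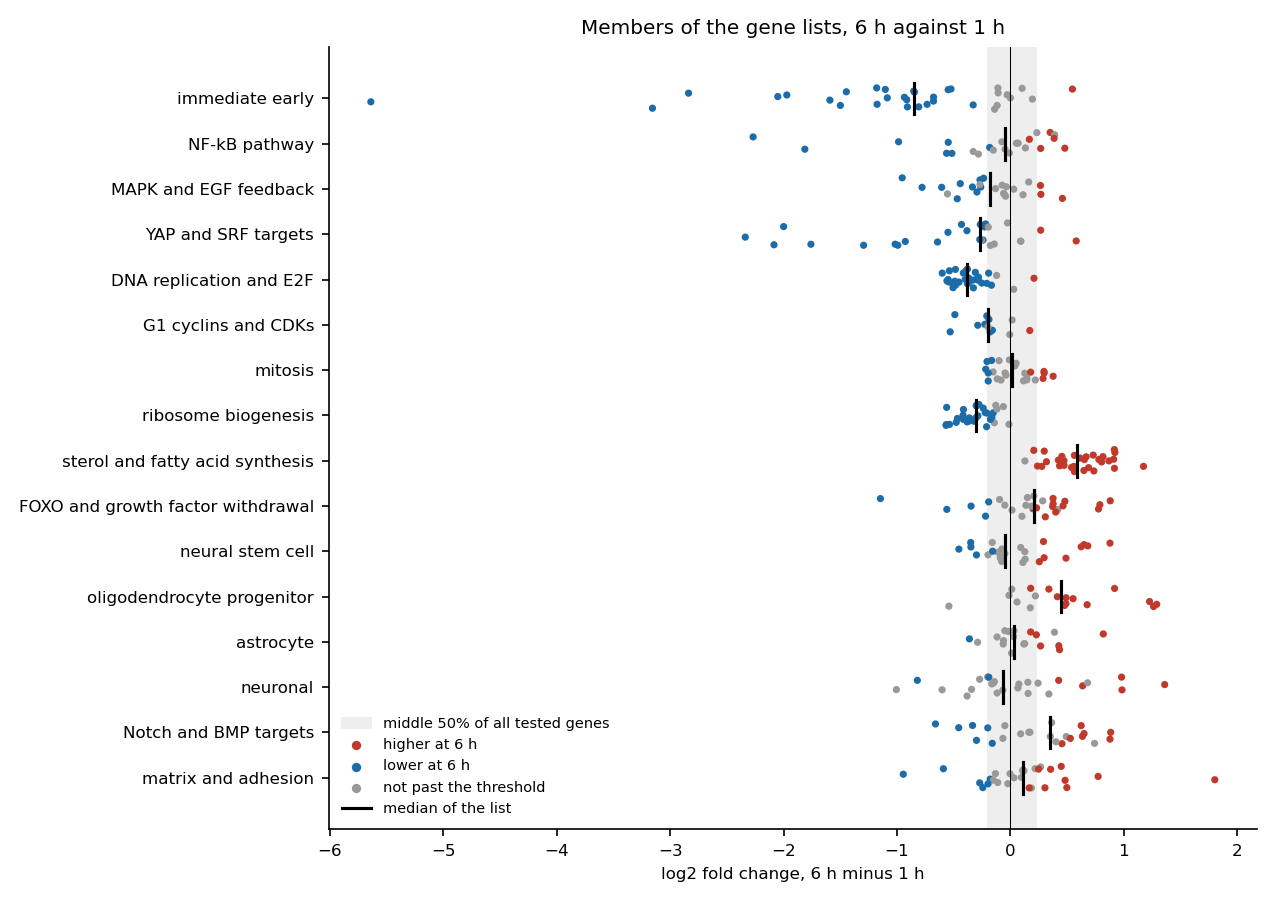
Log2 fold change between 6 h and 1 h of the tested members of 16 gene lists, 1 point per gene, with a black bar at the median of each list. The grey band holds the middle 50% of all tested genes. Nearly all sterol and fatty acid genes lie to the right of it, and most DNA replication, ribosome biogenesis and immediate early genes to the left.

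Genes higher at 6 h than at 1 h with no call between 0 h and 1 h, described as rising only after the first hour, numbered 3114. Of these 2305 were also higher at 6 h than at 0 h, and without the block the group numbered 279. Of the lists examined, the one with the largest share of members that rose was sterol and fatty acid synthesis, with 31 of 32 tested genes higher, none lower and a median of 0.59, beside 18.0% higher over all tested genes. Of these, 18 rose only after the first hour. Another 12 of the 32 had already risen in it (37.5%, beside 1.36% over all tested genes) and rose again. Without the block 7 rose. The cholesterol synthesis gene Hmgcs1 (ENSMUSG00000093930, chromosome 13, 119690379 to 119708260) went from 1364, 981 and 1289.7 CPM at 1 h to 2359, 1830.5 and 2126 CPM at 6 h, all libraries of 6 h above those of 1 h. This amounted to 0.80 ± 0.05 (edgeR adjusted p = 3.9e-07, and 0.0520 without the block). Its exons overlap those of the antisense gene Gm48342. Fasn, the fatty acid synthase gene, went from 1035, 977 and 1119 CPM at 1 h to 1912, 1841 and 2167 CPM at 6 h (0.92 ± 0.05, edgeR adjusted p = 1.8e-07, 0.0140 without the block). Scd2, a desaturase gene that shares exons with Mir5114, went from 5139, 5820.1 and 4478 CPM at 1 h to 6226, 7045 and 5923 CPM at 6 h. The paired change was 0.32 ± 0.05 (edgeR adjusted p = 4.1e-04, and 0.224 without the block). Hmgcs1, Fasn and Scd2 also had the 3 largest rises of all eligible genes by difference in mean CPM. Mvd, of the mevalonate pathway, had the largest fold of the list, from 75.04, 47.1 and 95.4 CPM at 1 h to 201, 116 and 167 CPM at 6 h. The difference was 1.17 ± 0.09 (edgeR adjusted p = 1.1e-06, and 0.102 without the block). The synthesis genes Lss (0.92 ± 0.06), Acat2 (0.91 ± 0.07), Acly (0.87 ± 0.05), Pmvk (0.82 ± 0.08) and Scd1 (0.65 ± 0.05) also rose. The feedback gene Insig1 changed by 0.57 ± 0.06 after a rise in the first hour. Of the regulators themselves, Srebf2 changed by 0.30 ± 0.05 (edgeR adjusted p = 7.4e-04), and Srebf1, the gene that did not pass the threshold, by 0.13 ± 0.06 (edgeR adjusted p = 0.110). Lpin1, a phosphatidate phosphatase gene, had fallen in the first hour (-0.29) and then rose from 111, 82.8 and 92.9 CPM at 1 h to 210.1, 158 and 175 CPM at 6 h. The log2 fold change was 0.92 ± 0.05 (edgeR adjusted p = 1.3e-07, and 0.0239 without the block).

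Among genes with a mean of at least 1 CPM that met the naming conditions, the largest rise was that of Kcnq3, a subunit of the M-type potassium channel (ENSMUSG00000056258, chromosome 15, 65986387 to 66286642), at 1.35, 3.68 and 1.39 CPM at 0 h, 1.42, 3.21 and 1.11 CPM at 1 h and 8.08, 18.5 and 8.91 CPM at 6 h. Replicate 2 was the highest at each time, and all libraries of 6 h lay above all of 1 h. Its rise was 6.33-fold. The change between times was 2.66 ± 0.11 (edgeR adjusted p = 1.5e-08, and 0.0614 without the block). Hdac9, a class IIa histone deacetylase gene (ENSMUSG00000004698, chromosome 12, 34047580 to 34917095), went from 4.28, 15.7 and 6.27 CPM at 1 h to 35.2, 64.5 and 38.7 CPM at 6 h. This was 2.55 ± 0.18 (edgeR adjusted p = 6.1e-07, and 0.103 without the block). Mef2c, which encodes a transcription factor bound by class IIa deacetylases (ENSMUSG00000005583, chromosome 13, 83504034 to 83667080), was not past the threshold in the first hour and then rose from 22.5, 20.2 and 17.8 CPM at 1 h to 91.7, 83.8 and 65.2 CPM at 6 h, 3.96-fold with no overlap. The fitted change was 1.99 ± 0.06 (edgeR adjusted p = 1.2e-09, and 0.00236 without the block). Pnpla3, a lipid droplet hydrolase gene, rose from 3.42, 4.37 and 4.48 CPM at 1 h to 20.2, 20.3 and 17.7 CPM at 6 h (2.25 ± 0.10, edgeR adjusted p = 2.6e-08, 0.00214 without the block), and shares exons with Gm49513.

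The other large rises were those of the guanine nucleotide exchange factor gene Arhgef3 (2.18 ± 0.09), of Wdr66 (2.33 ± 0.13), Prune2 (2.09 ± 0.15), Dusp27 (2.08 ± 0.19), Lemd1 (1.93 ± 0.11) and Gramd2 (1.84 ± 0.14), of the calcium channel subunit gene Cacng6 (2.03 ± 0.18), of the Nogo receptor homologue gene Rtn4rl1 (1.89 ± 0.11), of Fgl2 (1.70 ± 0.15) and of Synpo2l (1.67 ± 0.11). Each rose in 3 of 3 pairs and was past the threshold, as the naming rule required, and Synpo2l had also risen in the first hour (0.99). Dusp27 and Wdr66 changed by 0.69 and 0.66 in the first hour, which was not past the threshold (edgeR adjusted p = 0.154 and 0.0540). Arhgef3 was at 4.0, 4.39 and 3.70 CPM at 1 h and 15.2, 21.02 and 18.7 CPM at 6 h, which places all libraries of 6 h far above those of 1 h. Fgl2 was at 5.41, 19.4 and 4.05 CPM at 1 h and 17.1, 48.1 and 18.5 CPM at 6 h, and replicate 2 at 1 h lay above replicates 1 and 3 at 6 h. Of the 14 largest rises, which were picked for their size, 13 had no overlap (22.2% of all tested genes) and 8 were called without the block. The 6 that were not were Kcnq3, Hdac9, Cacng6 (0.112), Rtn4rl1 (0.0934), Gramd2 (0.0719) and Fgl2 (0.391), given with edgeR's adjusted p without the block. Exons of Arhgef3, Lemd1 and Wdr66 overlap those of other genes (Gm49616, AC124108.1 and Gm15857).

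**Figure D4:**
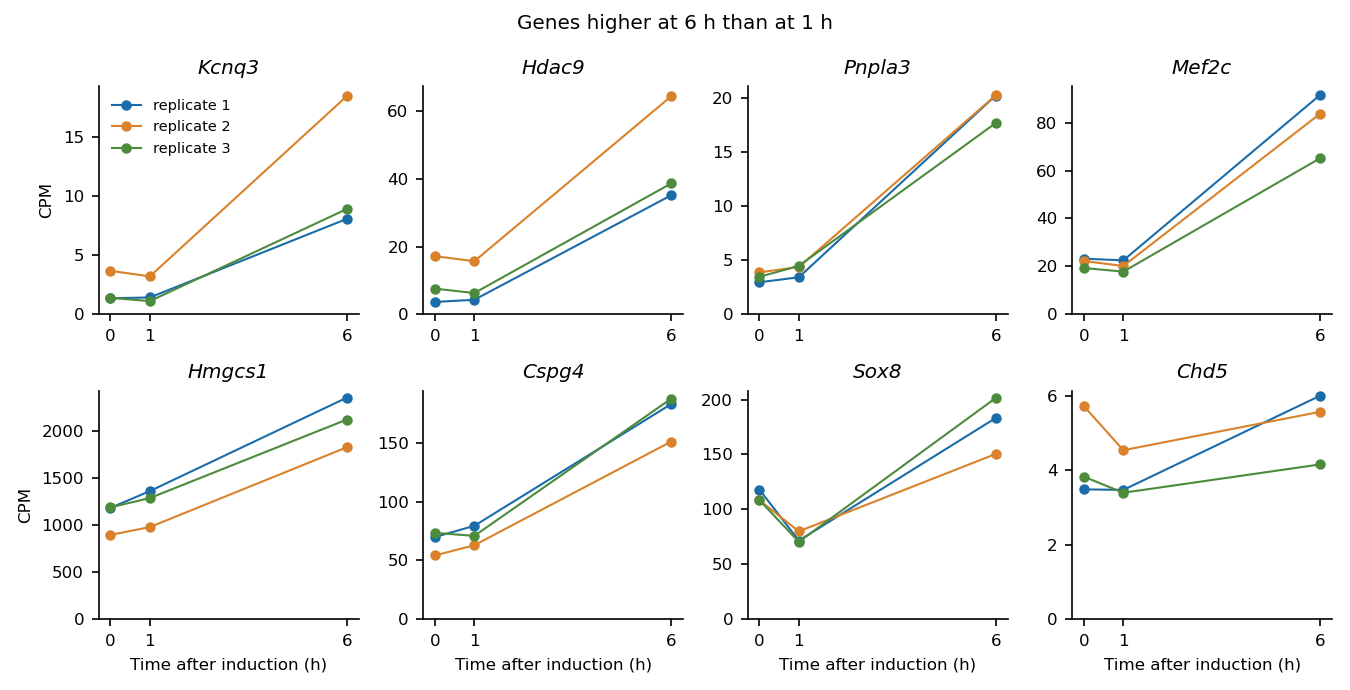
CPM of 8 genes that rose from 1 h to 6 h, by time after induction (h), with 1 line per replicate number. Kcnq3, Hdac9, Pnpla3 and Mef2c show no call until 1 h, Sox8 dips at 1 h, and the Chd5 libraries of 1 h and 6 h overlap.

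Genes of oligodendrocyte progenitors rose in 12 of 18 tested members (66.7%, beside 18.0% over all tested genes) and fell in none. Their median was 0.45, and without the block 3 rose, among them Cspg4 and Sox8. Cspg4, which encodes the progenitor antigen NG2 (ENSMUSG00000032911, chromosome 9, 56865033 to 56899870), went from 79.5, 63.00 and 70.98 CPM at 1 h to 183, 151 and 188 CPM at 6 h with no overlap. Its rise was 2.45-fold. On the log2 scale it changed by 1.29 ± 0.06 (edgeR adjusted p = 1.8e-08, and 0.00987 without the block). The proteoglycan gene Ncan went from 525, 654 and 434 CPM at 1 h to 838, 1019.9 and 714 CPM at 6 h. Its change was 0.68 ± 0.06 (edgeR adjusted p = 2.6e-06, and 0.106 without the block). The lineage factor gene Olig2 rose from 620.0, 542 and 576 CPM at 1 h to 849, 708 and 761 CPM at 6 h. The log2 change was 0.41 ± 0.05 (edgeR adjusted p = 5.6e-05, and 0.107 without the block). Pdgfra, the receptor gene that defines these progenitors, was between 7.14 and 19.98 CPM and changed by 0.48 ± 0.07 (edgeR adjusted p = 1.4e-04, 0.600 without the block). Among markers of mature oligodendrocytes 2 of 7 rose and 2 fell (28.6% each, beside 18.0% and 17.5% over all tested genes).

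Of 25 tested neuronal genes, 5 rose (20%, beside 18.0% over all tested genes) and 2 fell (8%, beside 17.5%), with a median of -0.07. The log2 fold change was positive in 12 of them and negative in 13. By edgeR 0 were called without the block (3 higher at an unadjusted p under 0.05) and DESeq2 called 2 higher. Syt1, a calcium sensor gene of synaptic vesicles, went from 15.4, 27.5 and 36.96 CPM at 1 h to 39.8, 57.6 and 114 CPM at 6 h with no overlap. This amounted to 1.36 ± 0.11 (edgeR adjusted p = 1.5e-06, and 0.209 without the block). The βIII-tubulin gene Tubb3 was at 4.36, 5.03 and 2.42 CPM at 1 h and 8.97, 10.1 and 4.43 CPM at 6 h, higher in each pair with overlapping ranges. The paired change was 0.98 ± 0.09 (edgeR adjusted p = 4.6e-06, and 0.279 without the block). Rbfox3 and Elavl3, which encode neuronal RNA-binding proteins, changed by 0.98 ± 0.15 and 0.64 ± 0.07 (edgeR adjusted p = 3.2e-04 and 1.4e-05, and 0.698 and 0.0943 without the block). The secretogranin gene Scg2 fell back (-0.82 ± 0.16, edgeR adjusted p = 0.00176, 0.673 without the block). The neuronal gene Stmn2 changed by -0.60, which was not past the threshold (edgeR adjusted p = 0.208). Of 19 astrocyte genes, 6 rose (31.6%, beside 18.0% over all tested genes) and 1 fell (5.26%, beside 17.5%), with a median of 0.03. Without the block edgeR called 0 of them (1 higher and 1 lower at an unadjusted p under 0.05) and DESeq2 called 1 lower. With the block Atp1b2 rose by 0.82 ± 0.07 and Apoe by 0.43 ± 0.08 (edgeR adjusted p = 5.1e-06 and 0.00141, and 0.484 and 0.203 without it), and Nfib fell from 369, 381 and 342 CPM at 1 h to 289, 286 and 273 CPM at 6 h. The difference was -0.36 ± 0.05 (edgeR adjusted p = 7.0e-05, and 0.0517 without the block).

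NSC genes rose in 8 and fell in 5 of 25 tested members, beside 18.0% and 17.5% over all tested genes, with a median of -0.05. Without the block edgeR called 2 higher and 0 lower (2 lower at an unadjusted p under 0.05) and DESeq2 3 and 1. The RNA-binding protein gene Msi1 rose from 47.5, 46.7 and 39.03 CPM at 1 h to 70.8, 78.3 and 64.5 CPM at 6 h with no overlap. The log2 fold change was 0.68 ± 0.06 (edgeR adjusted p = 2.4e-06, and 0.0214 without the block). The intermediate filament genes Nes and Vim fell, by 0.35 and 0.35 on the log2 scale (edgeR adjusted p = 1.8e-04 and 2.9e-04, 0.492 and 0.255 without the block), and Sox2 was -0.08 ± 0.06 (adjusted p = 0.340). Targets and components of Notch and BMP signalling rose in 7 (30.4%) and fell in 6 (26.1%) of 23, with a median of 0.35. Notch1 went from 318, 294 and 189.9 CPM at 1 h to 453, 359 and 402 CPM at 6 h. The change between times was 0.62 ± 0.10 (edgeR adjusted p = 5.4e-04, and 0.152 without the block). The ligand gene Dll3 rose from 13.2, 12.5 and 11.6 CPM at 1 h to 22.4, 24.3 and 21.9 CPM at 6 h with no overlap (0.88 ± 0.07, edgeR adjusted p = 2.4e-06, 0.00987 without the block), and the ligand gene Dll1 and the effector genes Hes5 and Hes6 changed by 0.46 ± 0.08, 0.88 ± 0.16 and 0.64 ± 0.08. The Notch modifier gene Lfng, on the NSC list, fell from 173, 189 and 155 CPM at 1 h to 123, 138 and 115 CPM at 6 h (-0.45 ± 0.05, edgeR adjusted p = 3.0e-05, 0.0662 without the block), and the BMP pseudoreceptor gene Bambi fell by 0.66 on the log2 scale. Without the block Dll1, Hes5, Hes6 and Bambi were not past the threshold by edgeR (0.455, 0.638, 0.258 and 0.181) or by DESeq2.

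Genes that FOXO factors activate or that answer growth factor withdrawal rose in 12 (44.4%) and fell in 5 (18.5%) of 27 tested members. Over all tested genes 18.0% rose and 17.5% fell. The median of the list was 0.21, and without the block 2 rose (Foxo4 and Sesn1). The stress gene Sesn1 rose from 21.8, 25.9 and 26.6 CPM at 1 h to 40.96, 41.8 and 45.6 CPM at 6 h with no overlap. This was 0.79 ± 0.06 (edgeR adjusted p = 1.1e-06, and 0.0108 without the block). Bcl6, a repressor gene, changed by 0.78 ± 0.09, the mTOR inhibitor gene Ddit4 by 0.48 ± 0.06 and Foxo1 by 0.40 ± 0.07, each past the threshold with the block. Without it their adjusted p-values were 0.150, 0.177 and 0.547 by edgeR, and DESeq2 called Bcl6 (0.0379). Members that fell included the ubiquitin ligase gene Fbxo32, from 48.01, 107 and 69.5 CPM at 1 h to 15.8, 56.4 and 34.8 CPM at 6 h (-1.15 ± 0.10, edgeR adjusted p = 5.2e-06, 0.309 without the block), and the proapoptotic gene Bcl2l11 (-0.56 ± 0.06, edgeR adjusted p = 2.6e-05, 0.151 without the block). Genes of matrix and adhesion rose in 9 (32.1%) and fell in 6 (21.4%) of 28, with a median of 0.11. Without the block 1 rose and 1 fell by edgeR, and 2 and 1 by DESeq2. The laminin gene Lama5 and the integrin gene Itga6 rose by 0.77 ± 0.07 and 0.45 ± 0.06 (edgeR adjusted p = 2.7e-06 and 5.6e-05, and 0.0331 and 0.103 without the block), whereas Itga7 fell from 96.3, 83.1 and 94.1 CPM at 1 h to 44.2, 44.8 and 53.2 CPM at 6 h with no overlap. The fitted change was -0.94 ± 0.06 (edgeR adjusted p = 2.6e-07, and 0.00987 without the block). Glycolysis and hypoxia genes (6 higher and 6 lower of 23), heat shock genes (5 and 6 of 18), ATF4 and amino acid genes (2 and 7 of 27) and genes of the m6A machinery (2 and 3 of 19) had medians of -0.03, 0.03, -0.08 and 0.03. In the same order the shares higher and lower were 26.1% and 26.1%, 27.8% and 33.3%, 7.41% and 25.9%, and 10.5% and 15.8%. Without the block 1 m6A gene was higher by both edgeR and DESeq2, and DESeq2 called 2 heat shock genes lower.

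A further 219 genes were lower at 1 h than at 0 h and then higher at 6 h, and at 6 h 53 of them were above 0 h, 9 below it and 157 not past the threshold. Without the block there were 0 by edgeR (204 at unadjusted p-values under 0.05) and 25 by DESeq2. With the block, leaving out 1 library of 0 h lowered their number to 64, 60 and 48 for replicates 1, 2 and 3. Leaving out 1 h replicate 1 gave 82, and leaving out replicate 1, 2 or 3 at all times gave 54, 44 and 127. Sox8, which encodes a SOXE factor of the oligodendrocyte lineage (ENSMUSG00000024176, chromosome 17, 25565892 to 25570686), was at 118, 108 and 108 CPM at 0 h, 71.5, 79.97 and 70.4 CPM at 1 h and 183, 150.5 and 201 CPM at 6 h. The 1 h libraries lay below and the 6 h libraries above all others, a rise of 1.26 ± 0.09 from 1 h (edgeR adjusted p = 5.8e-07, 0.00348 without the block), and the exons of Sox8 overlap those of 2810468N07Rik. The AT-hook gene Ahdc1 was at 37.5, 25.5 and 27.9 CPM at 0 h, 27.3, 20.98 and 16.6 CPM at 1 h and 78.4, 54.7 and 54.1 CPM at 6 h, where the libraries of 0 h and 1 h overlapped and those of 6 h lay above both (1.53 ± 0.07 from 1 h, edgeR adjusted p = 3.3e-08, 0.0212 without the block). The growth factor gene Fgf1 had replicate 1 far above the others at every time and rose in each pair, from 36.6, 5.89 and 9.16 CPM at 1 h to 87.6, 17.8 and 23.6 CPM at 6 h. On the log2 scale it changed by 1.39 ± 0.07 (edgeR adjusted p = 4.1e-08, and 0.532 without the block). The remaining genes named in this group were Zfp467 (1.37 ± 0.06), Igdcc3 (1.35 ± 0.09) and Cdc42ep2 (1.32 ± 0.12), and of these Cdc42ep2 was not called without the block (0.206). The transcriptional regulator gene Id3 followed the same path, with 86.2, 89.2 and 74.2 CPM at 0 h, 53.6, 70.5 and 48.7 CPM at 1 h and 85.4, 96.2 and 86.9 CPM at 6 h (0.65 ± 0.07 from 1 h, edgeR adjusted p = 2.2e-05, 0.0614 without the block).

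Chd5, a chromatin remodeller gene of the neuronal lineage (ENSMUSG00000005045, chromosome 4, 152338651 to 152390194), was at 3.48, 5.72 and 3.82 CPM at 0 h, 3.47, 4.53 and 3.39 CPM at 1 h and 5.999, 5.57 and 4.15 CPM at 6 h. It was higher at 6 h than at 1 h in each pair, but replicate 3 at 6 h lay below replicate 2 at 1 h. Against 0 h it changed by -0.18 ± 0.14 at 1 h, lower in 3 of 3 pairs, and by 0.28 ± 0.13 at 6 h, higher in 2 of 3. Neither was past the threshold (edgeR adjusted p = 0.525 and 0.127). The log2 fold change from 1 h to 6 h was 0.46 ± 0.14 (edgeR adjusted p = 0.0176, 0.369 without the block). The call was lost in 5 of the alternatives that kept the block. The adjusted p was 0.060 with GC and length trends removed, and without replicate 1 or 6 h replicate 1 the change was 0.30 and 0.26 and the adjusted p 0.12 in both, and the antisense gene Gm13645 overlaps its exons. A further list holds genes that the study names for this system, chosen by the study from these cells for their splicing and the place of their transcripts. The values here are read counts per gene, which is a different measure. Of the 9 tested genes on this list, 4 rose (Atl1, Chd5, Scrt1 and Sox6) and 4 fell (Camk2a, Fancc, Kat2a and Lgr5). These are 44.4% in each direction, beside 18.0% higher and 17.5% lower over all tested genes. Ptprv changed by -0.29 ± 0.12 (edgeR adjusted p = 0.0654) and Scrt2 was too low to be tested. Without the block edgeR called 0 of them (1 higher and 2 lower at an unadjusted p under 0.05), and DESeq2 called Sox6 higher and Kat2a lower (adjusted p = 0.0238 and 0.0498). Sox6, a factor gene of oligodendrocyte progenitors, rose from 223, 226 and 161 CPM at 1 h to 293, 284 and 272 CPM at 6 h with no overlap (0.49 ± 0.07, edgeR adjusted p = 1.7e-04). Camk2a, a kinase gene of synapses, went from 13.3, 14.98 and 2.25 CPM at 1 h to 7.67, 9.31 and 1.58 CPM at 6 h, lower in each pair (-0.69 ± 0.08, edgeR adjusted p = 4.8e-05), and Kat2a, an acetyltransferase gene, changed by -0.29 ± 0.04 (adjusted p = 3.3e-04). The Scratch gene Scrt1 was below 1 CPM in all 6 libraries (0.91 ± 0.28, edgeR adjusted p = 0.0213). The calls of Scrt1, Fancc, Atl1 and Lgr5 were lost in 6, 7, 9 and 1 of the alternatives that kept the block, with adjusted p-values of up to 0.15, 0.11, 0.23 and 0.059.

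Markers of other cell types were measured beside these groups. Of 10 microglia markers 2 were tested, of which 1 fell (50%, beside 17.5% over all tested genes), and C1qa, C1qb and Itgam had no read in any library. Of 8 blood cell markers 2 were tested and neither was called, and the hemoglobin genes listed were at 0 in every library. The summed level of 10 endothelial and mural markers was between 67.8 and 127 CPM at 1 h and between 35.7 and 56.6 CPM at 6 h, most of it Acta2, while the endothelial genes Cldn5 and Cdh5 were at or below 0.0330 CPM. Of 7 tested members of this list 4 fell (57.1%, beside 17.5% over all tested genes) and 1 rose (14.3%, beside 18.0%). Without the block edgeR called 0 of them (1 higher and 1 lower at an unadjusted p under 0.05) and DESeq2 called 1 lower. The member that rose with the block was the mural receptor gene Pdgfrb, from 0.0625, 0.0438 and 0.542 CPM at 1 h to 0.760, 0.627 and 4.97 CPM at 6 h. Its change was 3.34 ± 0.22 (edgeR adjusted p = 4.1e-07, and 0.212 without the block). Of 6 tested ependymal markers 1 fell (16.7%, near the 17.5% over all tested genes). It was Foxj1, from 90.9, 49.8 and 54.04 CPM at 1 h to 58.6, 36.4 and 45.2 CPM at 6 h. The log2 change was -0.45 ± 0.07 (edgeR adjusted p = 2.4e-04, and 0.495 without the block). The part of other cell types in the results above was not tested.

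Gene structure is given by path as a description. The 123 genes that fell back spanned a median of 10296 bp with 4 exons in the longest transcript, and all tested genes spanned 16375 bp with 5 exons. The genes that rose only after the first hour spanned a median of 25149.5 bp with 8 exons, and those that fell only after it 22387.5 bp with 7. Of the 123, 112 were protein-coding, beside 14216 of all 18858 tested genes. Their median level was 14.7 CPM over the 9 libraries, beside 11.2 CPM over all tested genes. The genes that rose only after the first hour had a median of 18.5 CPM and those that fell only after it 41.7 CPM.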

How the data were processed

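RNA-seq libraries of SEZ NSC cultures, 3 for each of the times 0 h, 1 h and 6 h, were analysed. The deposited values are raw read counts per Ensembl gene, which the authors did not normalise. The submitters' processing notes name STAR 2.5.3a, FastQC, DESeq2 1.22.1 and the build mm10 (GRCm38), and the strand setting of the counting is not given in the sources used here, so overlapping genes on either strand may share reads. All 9 columns matched a library. Symbols and positions came from GENCODE M21 (48144 of 48526 gene identifiers).

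Counts were fitted in R 4.3.3 with edgeR 4.0.16 (filterByExpr with a minimum count of 10 and a total of 15, TMM, glmQLFit and glmQLFTest) on all 9 libraries, with time and replicate number as factors and Benjamini-Hochberg adjustment. Replicate numbers come from the labels. After subtraction of time means, the correlation was between 0.733 and 0.800 in the 9 pairs of libraries with the same number. It was between -0.462 and -0.314 in the 18 pairs of other numbers and times, where subtracting the mean of 3 libraries by itself lowers the correlation. The block was used because the comparison pairs libraries by number and those with the same number were alike. Alternatives were the fit without the block, DESeq2 1.42.0 with and without it, RLE scaling, library totals, other filters and thresholds, only the 6 libraries of 1 h and 6 h, GC and length trends removed by splines (4 degrees of freedom, on 99.6% of tested genes), and leaving out libraries. Tables and figures used Python 3.11.15. The edgeR fit with the block was also run on counts simulated from that same fit, which cannot show whether the model is right. A few list members are not reported here by name.

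Genes were named if they were Klf6, Nfkbiz, Fosb or Chd5; the 14 largest rises or falls by fold, or the 6 largest differences in CPM, among genes past the threshold with a mean of at least 1 CPM over the 9 libraries and the same direction in 3 of 3 pairs (leaving out Gm and Rik symbols); the 6 largest per path; or members of 27 gene lists. Genes in the motif windows were chosen after their values were seen. The comparison, the genes and the lists were chosen with earlier results of these data known.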

Additional observations from a re-analysis of the deposited data

How the results depend on the processing

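Of 3563 values of named genes under the alternatives, 3315 kept direction and side of the threshold, 212 lost the call, 15 gained one and 21 changed sign. Of 157 named genes called with the replicate block, 47 were called without it and 146 kept the call in every alternative that kept the block. Without the replicate block edgeR gave 279 higher and 125 lower genes for 6 h against 1 h, 8 and 0 for 1 h against 0 h (459 lower at an unadjusted p under 0.05) and 276 and 180 for 6 h against 0 h, with 4 genes that fell back, 0 lower and then higher, 279 late rises and 121 late falls, and with 9 immediate early, 0 DNA replication, 1 ribosome biogenesis and 4 YAP and SRF genes lower and 7 sterol, 3 oligodendrocyte progenitor and 2 FOXO genes higher. DESeq2 without the replicate block gave 930 and 758, 55 and 44, and 937 and 810, with 33 genes that fell back, 25 lower and then higher, 900 late rises, 723 late falls, and 3 DNA replication, 6 ribosome biogenesis and 9 YAP and SRF genes lower and 17 sterol, 6 oligodendrocyte progenitor and 3 FOXO genes higher. Without a filter on low counts, 581 genes were higher and 788 lower at 1 h against 0 h, 257 fell back and 406 were lower and then higher. At an adjusted p under 0.01 there were 2223 and 2023, 129 and 111, and 2142 and 2128 genes, 70 that fell back, 66 lower and then higher and 1945 late falls. At least a 2-fold change left 287 and 308, 63 and 7, and 348 and 256 genes, 29 that fell back, 2 lower and then higher, 283 late rises and 279 late falls. Leaving out libraries gave between 2284 and 3294 higher and 1848 and 3363 lower genes for 6 h against 1 h (1848 without replicate 2), 116 to 325 and 68 to 561 for 1 h against 0 h, 1907 to 3996 and 1749 to 4055 for 6 h against 0 h, 69 to 128 that fell back, 44 to 247 lower and then higher, 2223 to 3120 late rises, 1775 to 3201 late falls, and list counts of 23 to 25 (immediate early), 24 to 29 (DNA replication), 18 to 26 (ribosome biogenesis), 13 to 18 (YAP and SRF), 29 to 32 (sterol), 10 to 12 (oligodendrocyte progenitor) and 11 to 13 (FOXO). Without 0 h replicate 1, 2 or 3 the first hour had 140, 126 and 135 higher and 117, 87 and 84 lower genes, without 1 h replicate 1 or 2 it had 152 and 265 lower, and without 0 h replicate 2, 2147 genes were lower at 6 h against 0 h. Signs changed in genes near 0. Jun had log2 values of 0.0073 with library totals and -0.11 to 0.048 without libraries, Dusp6 0.00018 with totals and -0.17 to 0.092 without libraries, Sox2 -0.16 to 0.020 without libraries, and Myc -0.0056 without the block, -0.0074 and -0.013 by DESeq2 with and without it, -0.0073 with RLE, -0.0063 with 6 libraries, -0.036 with GC and length trends removed and -0.14 to 0.094 without libraries. The cause of these differences was not tested. With 3 libraries per time no sample was tested as standing apart, and low counts, such as 5 reads of Egr3 in a library at 6 h, limit the fold changes of the lowest genes.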
